A study of Mus musculus with 18 samples.

Results

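The comparison is between the dorsal dermis of mice collected 2 h after lights on (ZT2, 3 libraries) and 2 h before lights on (ZT22, 3 libraries), which are 6 of the 18 libraries of the series. Zeitgeber time (ZT) is given in hours after the lights turn on, so the 4 h between both times hold the change from dark to light. All mice were wild-type (WT) C57BL/6 males of about the same age, with resting hair follicles, kept in 12 h of light and 12 h of dark, and none received another treatment. Dermis was digested with collagenase, live cells were sorted, and each mouse gave 1 droplet library of single-cell RNA counts, so the mouse was the replicate. The collection hours in the labels are 2, 26 and 50 for ZT2 and 22, 46 and 70 for ZT22, so that mice of a time came from different days, and day and replicate cannot be told apart. Unique molecular identifiers (UMIs, 1 per captured transcript) were summed per library over all cells that passed a filter and, as the main comparison, over fibroblasts. A cell was kept where 850 to 7800 genes were detected and mitochondrial UMIs were under 13%, and counted as a fibroblast with at least 20 UMIs of Col1a1, Col1a2 and Col3a1 together, at least 1 of Pdgfra and 0 of Ptprc. This left 6410 of the 16877 kept cells of the series, 3336 at ZT2 and 3074 at ZT22, and 4605 of its 12119 fibroblasts, 2371 at ZT2 and 2234 at ZT22.

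The circadian clock of mammalian cells is a feedback loop of transcription. CLOCK and ARNTL (also called BMAL1) bind E-box sequences and activate the Period and Cryptochrome genes, whose proteins return to repress them, and the same pair activates the REV-ERB receptors Nr1d1 and Nr1d2, which repress Arntl. A further arm is formed by the PAR bZIP factors Dbp, Tef and Hlf, activators at D-box sequences, and by their antagonist Nfil3. In mouse tissues other than the central pacemaker the REV-ERB genes are known to be induced in the early light phase, while Cry1 is the late member of the loop. Skin holds such clocks in fibroblasts and in immune cells.

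The 6 libraries held 963 to 2278 barcodes and 12849185 to 40827442 UMIs each. Fibroblasts gave 8211924 to 33503133 UMIs per library, from 378 to 1493 cells. The median fibroblast held 22622 to 27805 UMIs in the ZT2 libraries and 21588 to 22110 in the ZT22 libraries, so depth per cell was higher at ZT2 without overlap. The 6 fibroblast markers, 4 of which set the gate, summed to 66271 to 108274 CPM (UMIs of a gene per 1000000 UMIs of the sum) in the fibroblasts, and 6 immune markers to 9.25 to 14.3 CPM, with Ptprc at 0 by the gate. Keratinocyte markers summed to 143.5 to 272.6 CPM in the ZT2 fibroblasts and 92.7 to 157.2 CPM in the ZT22 fibroblasts, and red blood cell markers, spread widely in both groups, to 132.2 to 1853 and 246 to 972.5 CPM. No marker of another cell type that was tested below passed. Low counts left many untested, with 0 of 4 neutrophil, 1 of 6 mural and 2 of 6 keratinocyte markers tested in fibroblasts. All 5 red blood cell markers were tested and higher at ZT2 (median log2 difference 1.02). Of 6 skeletal muscle markers tested, 5 were lower (median -0.30). Of the 15 pairs among the 6 libraries, 3 shared barcodes of kept cells, 4 barcodes in all.

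In fibroblasts, 7 of 12821 genes differed between ZT2 and ZT22 at an adjusted p under 0.05 (edgeR quasi-likelihood test over all 18 libraries, Benjamini-Hochberg), which is 0.0546% of the genes tested. Nr1d1, Nr1d2 and Klf11 were higher after lights on, and Per2, Cry1, Rnf165 and Gm19522 were lower. Of these genes, 4 are clock repressors and the other 3 lie outside the lists of clock genes. At an unadjusted p under 0.05, 520 genes were higher at ZT2 (4.06%) and 533 lower (4.16%), and the median log2 difference of all genes was 0.00.

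**Figure D1:**
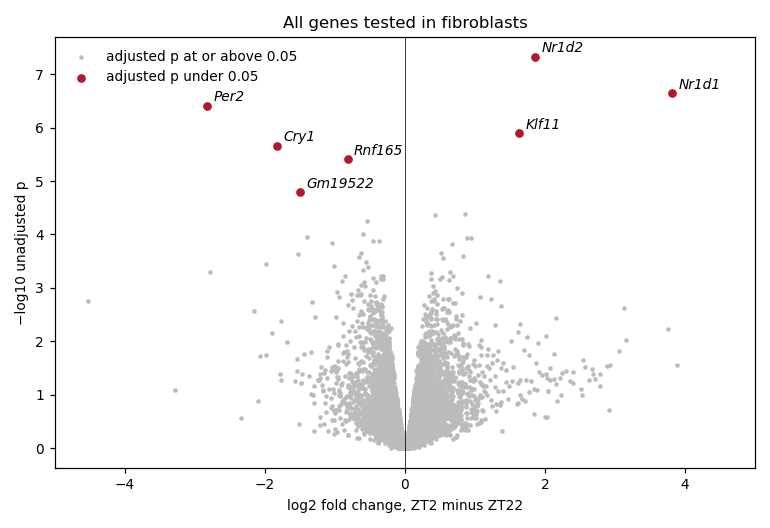
Every gene tested in fibroblasts, with the log2 difference between ZT2 and ZT22 on the horizontal axis and −log10 of the unadjusted p on the vertical axis. The 7 genes past the adjusted threshold are labelled, 3 on the right (higher at ZT2) and 4 on the left, and Nr1d1 is the labelled gene farthest from 0, at 3.81.

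Nr1d1 (REV-ERBα, ENSMUSG00000020889, chr11:98767932-98775333 on the minus strand of GRCm38) was at 30.7, 45.9 and 32.8 CPM in the ZT2 libraries and at 0.901, 1.95 and 6.82 CPM in the ZT22 libraries. The fibroblast sums of all 3 ZT2 libraries were far above those of all 3 ZT22 libraries, and within ZT22 replicate 3 stood above the others. The means were 36.5 ± 8.25 and 3.22 ± 3.16 CPM (SD, n = 3), an 11.3-fold ratio, and the fitted log2 difference was 3.81 ± 0.46 (SE, adjusted p = 0.0015). This rests on 1969 UMIs at ZT2 and 112 at ZT22. The log2 difference of Nr1d1 was 4.68 without ZT22 replicate 3, 3.26 to 3.90 when any other of the 6 libraries was left out, and 3.08 with equal cell numbers. Its paralog Nr1d2 (REV-ERBβ, ENSMUSG00000021775, chr14:18204054-18239127, minus strand) had 34, 47.1 and 37.5 CPM at ZT2 against 6.98, 12.3 and 14 CPM at ZT22. The groups were again apart, and in both receptors ZT2 replicate 2 was the highest library. The log2 difference of Nr1d2 was 1.86 ± 0.20, with the smallest adjusted p of all genes (0.0006).

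Klf11, a zinc-finger transcription factor of the Krüppel-like family (ENSMUSG00000020653, chr12:24651274-24662789, plus strand), was at 13.6, 18.7 and 12 CPM at ZT2 and at 3.74, 6.27 and 3.77 CPM at ZT22. No ZT22 library reached the lowest ZT2 library. The log2 difference was 1.64 ± 0.22 (adjusted p = 0.0041), and 0.0545 was its adjusted p without ZT22 replicate 1.

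Per2, a repressor of CLOCK and ARNTL (ENSMUSG00000055866, chr1:91415982-91459324, minus strand), was at 1.18, 1.81 and 1.52 CPM at ZT2 and at 9.55, 12.9 and 9.25 CPM at ZT22. Its level was thus low in every library after lights on, 85 UMIs in all against 526. The log2 difference was -2.82 ± 0.35 (adjusted p = 0.0017), and with all libraries thinned to the depth of the smallest it was -3.31 with an adjusted p of 0.0758. Cry1, the cryptochrome partner of the Period proteins (ENSMUSG00000020038, chr10:85131700-85185064, minus strand), was at 9.27, 6.65 and 8.12 CPM at ZT2 and at 30.1, 29.96 and 23.7 CPM at ZT22. Both groups were tight and lay well apart. The log2 difference was -1.82 ± 0.26 (adjusted p = 0.0056), and the adjusted p was 0.076 without ZT2 replicate 2, 0.0779 without ZT2 replicate 3 and 0.0545 without ZT22 replicate 1.

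Rnf165 encodes a RING-finger ubiquitin ligase (ENSMUSG00000025427, chr18:77456110-77565161, minus strand) and had 17.8, 14.9 and 15.2 CPM at ZT2 and 27, 28.7 and 27.8 CPM at ZT22. The difference, -0.82 ± 0.12 on the log2 scale (adjusted p = 0.0083), was the smallest of the 7 in size, with little spread within each group. Without ZT2 replicate 2, ZT2 replicate 3 or ZT22 replicate 1 the adjusted p was 0.0929, 0.123 and 0.0545.

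Gm19522 is a long non-coding RNA annotated as antisense to Zbtb20, which it overlaps on the other strand (ENSMUSG00000116903, chr16:42884370-42912065, minus strand). It was at 2.91, 3.19 and 3.49 CPM at ZT2 and at 8.65, 9.90 and 8.65 CPM at ZT22. The libraries of a time were close to each other, and the log2 difference was -1.50 ± 0.25 (adjusted p = 0.029). Its call was lost when any 1 of the 6 libraries was left out, with adjusted p from 0.0821 to 0.211.

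The promoter windows of these genes, 250 bases before to 50 after the transcription start in RefSeq (GRCm38.p6), were searched on both strands for the E-box CACGTG, bound by CLOCK and ARNTL, and for the D-box as TTATGTAA or TTACGTAA, bound by the PAR bZIP factors and Nfil3. Of 32851 promoters of that length, 7.15% held the E-box and 1.06% the D-box. A window was matched for 5 of the 7 genes. Shown are those of Klf11 and Cry1, which moved in opposite directions and both hold an E-box, and of Gm19522, which holds a D-box. That of Nr1d1, the gene with the largest change, is also shown and holds neither. The Nr1d1 window overlaps the gene position given above only at bases 98775328 to 98775333, so its RefSeq start site lies outside that position. The absence of a motif holds for this window only. Capitals mark the motif, which starts 214 bases before the start site in Klf11, 60 before it in Cry1 and 75 before it in Gm19522. Each is written 5′ to 3′ on the strand of the gene.
Klf11 (chr12:24651121-24651420, plus strand): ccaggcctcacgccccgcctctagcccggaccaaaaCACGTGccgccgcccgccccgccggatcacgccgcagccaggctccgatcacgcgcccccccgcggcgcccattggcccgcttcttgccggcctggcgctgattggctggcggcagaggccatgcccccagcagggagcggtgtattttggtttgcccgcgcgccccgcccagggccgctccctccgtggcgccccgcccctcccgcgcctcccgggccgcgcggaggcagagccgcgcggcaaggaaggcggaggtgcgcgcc
Cry1 (chr10:85185005-85185304, minus strand): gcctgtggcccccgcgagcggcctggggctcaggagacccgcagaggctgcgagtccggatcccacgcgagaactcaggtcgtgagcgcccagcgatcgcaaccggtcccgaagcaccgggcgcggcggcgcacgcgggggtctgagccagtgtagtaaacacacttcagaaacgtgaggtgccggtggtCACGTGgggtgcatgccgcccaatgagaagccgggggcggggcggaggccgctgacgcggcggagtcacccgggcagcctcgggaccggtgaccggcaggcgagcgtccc
Gm19522 (chr16:42912021-42912320, minus strand): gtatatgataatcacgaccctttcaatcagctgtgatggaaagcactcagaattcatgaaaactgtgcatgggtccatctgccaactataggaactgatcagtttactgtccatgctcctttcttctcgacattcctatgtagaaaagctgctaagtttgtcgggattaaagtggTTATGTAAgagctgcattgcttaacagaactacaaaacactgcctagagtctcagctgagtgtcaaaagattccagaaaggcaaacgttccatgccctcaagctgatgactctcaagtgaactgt
Nr1d1 (chr11:98775328-98775627, minus strand): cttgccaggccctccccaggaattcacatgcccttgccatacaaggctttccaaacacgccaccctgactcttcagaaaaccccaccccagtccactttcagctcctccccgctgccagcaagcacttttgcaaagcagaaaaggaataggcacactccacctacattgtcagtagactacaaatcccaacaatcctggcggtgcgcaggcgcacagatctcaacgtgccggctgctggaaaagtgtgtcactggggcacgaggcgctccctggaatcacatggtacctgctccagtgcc
The window of Nr1d2 held neither motif.

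Over the whole day, the 7 genes took different courses through this step. Nr1d1 averaged 3.22 CPM at ZT22, 36.5 at ZT2 and 138.8 at ZT6, and Nr1d2 11.1, 39.5 and 112.4 CPM, so ZT2 lay on the way to the midday level of both. Klf11 was at 4.60, 14.8 and 18.9 CPM at these times. The later step, from ZT2 to ZT6, was 1.97 on the log2 scale for Nr1d1 (adjusted p = 0.014), 1.55 for Nr1d2 (adjusted p = 0.00029) and 0.40 for Klf11, for which it did not pass the test (adjusted p = 0.57). Both steps share the ZT2 libraries.

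Per2 had its lowest mean of the day at ZT2, 1.51 CPM, between 10.6 CPM at ZT22 and 7.85 CPM at ZT6, and Rnf165 likewise, 15.95 CPM between 27.8 and 22.2. Cry1 went on to a lower mean, 2.18 CPM at ZT6 after 8.01 at ZT2, and so did Gm19522, 2.52 after 3.20 CPM. From ZT2 to ZT6 the log2 change was 2.43 for Per2 (adjusted p = 0.0032) and -1.88 for Cry1 (adjusted p = 0.014). For Rnf165 (0.50, adjusted p = 0.10) and Gm19522 (-0.26, adjusted p = 0.88) that step did not pass the test. In the same fit, 41 of 12821 fibroblast genes were higher and 40 lower past the threshold from ZT2 to ZT6. From ZT18 to ZT22 1 gene passed it, Nr1d2, which was lower at ZT22 (log2 change -1.39, adjusted p = 0.0486).

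**Figure D2:**
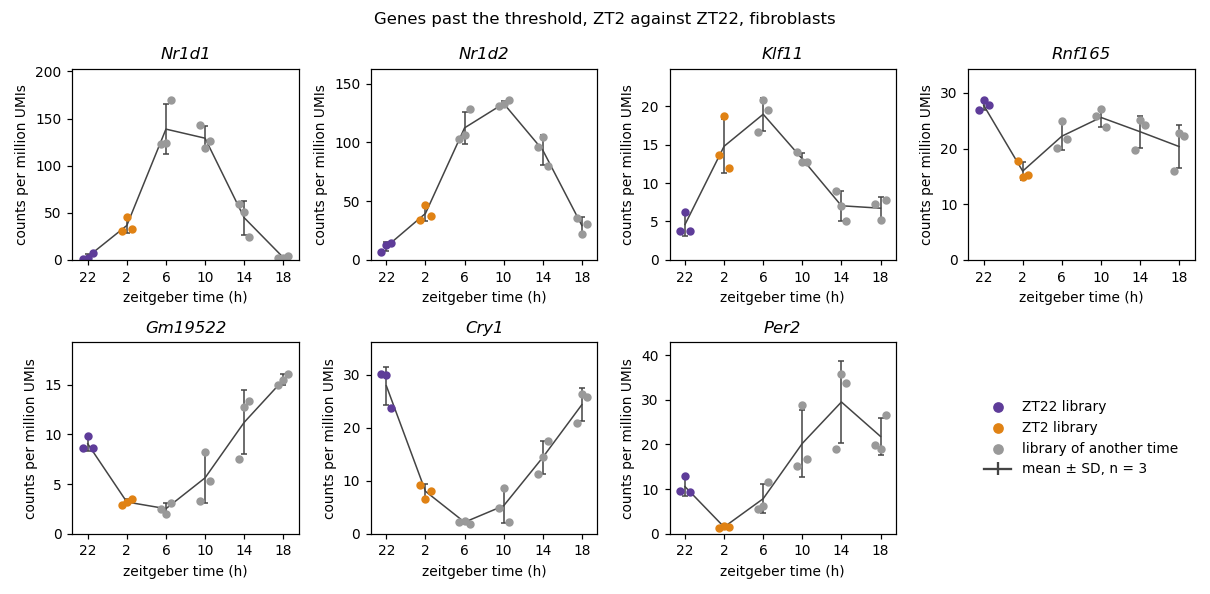
Level of the 7 genes in fibroblasts (CPM, vertical axis) by zeitgeber time in hours (horizontal axis, starting at ZT22), with 1 point per library and the mean ± SD of 3 libraries as a line. The ZT22 and ZT2 points do not overlap in any panel, and Per2 and Rnf165 have their lowest mean at ZT2.

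None of the 5 clock activators tested in fibroblasts passed the threshold, and none had an unadjusted p under 0.05. Arntl, the partner of CLOCK, was at 34.9, 24.5 and 27.9 CPM at ZT2 and at 31.3, 32.2 and 34 CPM at ZT22, with overlapping groups and a log2 difference of -0.17 ± 0.23. Clock itself (-0.15 ± 0.10), its paralog Npas2 (0.03 ± 0.30) and the ROR receptors, which activate Arntl, Rora (0.04 ± 0.10) and Rorb (0.23 ± 0.19), were also within the spread of the libraries. Arntl stood near the top of its daily range with a mean of 32.5 CPM at ZT22 and 29.1 CPM at ZT2, and was at 4.58 CPM at ZT6.

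Among the 10 clock repressors, 4 passed (2 higher and 2 lower) and 6 did not. The other Period and Cryptochrome genes stayed within their spread, with log2 differences of 0.29 ± 0.20 for Per1, -0.05 ± 0.21 for Per3 and -0.10 ± 0.12 for Cry2. Per2 and Cry1 thus differed from their family members in what the test called, although the differences between the genes were not themselves tested. Bhlhe40, an E-box repressor, was at 41.7, 24.3 and 35.3 CPM at ZT2 and at 62.8, 57.6 and 30.3 CPM at ZT22, where replicate 3 fell among the ZT2 libraries (-0.60 ± 0.29, adjusted p = 0.62). Its paralog Bhlhe41 had a difference of -0.35 ± 0.22. Ciart, another repressor, was rare in fibroblasts, with 6 UMIs at ZT2 and 18 at ZT22, and its fitted difference of -1.78 ± 0.80 depends on these few counts (adjusted p = 0.59).

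None of the PAR bZIP factors Dbp, Tef and Hlf passed, nor did Nfil3. At an unadjusted p under 0.05, 1 of these 4 genes was higher at ZT2 (Dbp) and 2 were lower (Hlf and Nfil3). Of all genes, 4.06% were higher and 4.16% lower at that threshold. Dbp was at 5.45, 21.1 and 8.83 CPM at ZT2 and at 5.68, 6.16 and 6.21 CPM at ZT22. Of the ZT2 libraries, replicate 2 was far above the others and replicate 1 was below all ZT22 libraries (0.93 ± 0.41, adjusted p = 0.58). At ZT6 the mean of Dbp was 166.1 CPM, after 11.8 at ZT2. Hlf was at 3.91, 3.80 and 1.79 CPM at ZT2 and at 3.92, 4.49 and 7.67 CPM at ZT22, just without overlap (-0.82 ± 0.31, adjusted p = 0.47). Tef (-0.25 ± 0.21) and the antagonist Nfil3 (-0.48 ± 0.23) overlapped between the times.

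The next genes by adjusted p, above the threshold, were 5 with higher and 4 with lower levels at ZT2, and in each the 3 libraries of one time were apart from those of the other. All 3 ZT2 libraries lay above all 3 ZT22 libraries in 8.81% of the genes tested and below them in 6.58%. Ssh2, a phosphatase that activates the actin-severing protein cofilin, was at 71.1, 78.7 and 75.7 CPM at ZT2 and at 51.8, 62.3 and 50.9 CPM at ZT22 (0.44 ± 0.08, adjusted p = 0.063). Zfp608, a zinc-finger protein, had 8.64, 8.29 and 8.42 against 5.05, 4.43 and 4.14 CPM (0.86 ± 0.16, adjusted p = 0.063). These were the nearest to the threshold among the genes with higher levels.

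Fbxo32, which encodes the ubiquitin ligase subunit atrogin-1, had 11.6, 11.8 and 11.8 CPM at ZT2 and 5.41, 6.49 and 6.33 CPM at ZT22 (0.94 ± 0.19, adjusted p = 0.11). The log2 difference was 0.89 ± 0.18 for Ubald2 and 0.67 ± 0.14 for Tmem140, a membrane protein, each with an adjusted p of 0.11. On the lower side, Rrn3, an initiation factor of RNA polymerase I, was at 10.5, 11.6 and 12 CPM at ZT2 and at 15, 17.5 and 16.9 CPM at ZT22 (-0.54 ± 0.10, adjusted p = 0.073). Rcan2, a regulator of the phosphatase calcineurin, had a difference of -0.60 ± 0.12. The adaptor Sh2b3 was at -0.45 ± 0.09 and Tnfaip8l3, with 54 UMIs at ZT2 and 113 at ZT22, at -1.39 ± 0.28. These 3 had an adjusted p of 0.11 each.

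The gene lists were chosen with earlier results of these data known, so counts within them are no independent evidence. Among the lists outside the clock, no gene passed the adjusted threshold in fibroblasts, and the counts that follow are at an unadjusted p under 0.05, to be read against 4.06% of all genes higher and 4.16% lower. Of 16 fasting and insulin-response genes, 7 were past it with higher levels at ZT2 and 1 with a lower level, and the median log2 difference was 0.10. Pik3ip1, an inhibitor of PI3 kinase, was at 32.9, 39.4 and 38.7 CPM at ZT2 and at 16.3, 24.8 and 21.4 CPM at ZT22 (0.82 ± 0.18, adjusted p = 0.15). Pdk4, the kinase that turns off pyruvate dehydrogenase, was at 18.3, 28.2 and 16.1 CPM at ZT2 and at 10.3, 9.73 and 5.11 CPM at ZT22 (1.23 ± 0.33, adjusted p = 0.28). Both had all ZT2 libraries above all ZT22 libraries. The same held for Cpt1a, which admits fatty acids to mitochondria (0.63 ± 0.17, adjusted p = 0.28), and for Txnip, an inhibitor of glucose uptake (0.39 ± 0.11, adjusted p = 0.30).

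Of 22 genes of fatty acid, triglyceride and sterol synthesis, 4 were past the unadjusted threshold with higher levels at ZT2 and 0 with lower levels, at a median of 0.21. Insig1, the sterol-regulated anchor of the SREBP pathway, was at 108, 57.3 and 68 CPM at ZT2 and at 34.6, 49.4 and 57 CPM at ZT22. The lowest ZT2 library and the highest ZT22 library nearly met (0.73 ± 0.22, adjusted p = 0.32). Fdps and Idi1, enzymes of isoprenoid synthesis, had differences of 0.51 ± 0.18 and 0.61 ± 0.28. Dgat2, which makes triglycerides, had 0.88 ± 0.37 from 51 UMIs at ZT2 and 24 at ZT22.

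The 18 heat shock genes had 5 past the unadjusted threshold, each lower at ZT2, and a median of -0.11. Among them were the HSP90 and HSP70 co-chaperones Chordc1 (-0.43 ± 0.17), Stip1 (-0.36 ± 0.15), Cacybp (-0.25 ± 0.10) and Dnaja1 (-0.24 ± 0.10). The cold-inducible RNA-binding gene Cirbp was at 46.4, 63.7 and 55.2 CPM at ZT2 and at 34.9, 38.8 and 39.1 CPM at ZT22, without overlap (0.54 ± 0.16, adjusted p = 0.33), while its relative Rbm3 had 0.10 ± 0.10.

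Of 19 glucocorticoid receptor and target genes, 1 was past the unadjusted threshold with a higher and 2 with a lower level at ZT2. Fkbp5, a receptor co-chaperone that glucocorticoids induce, was at 67.8, 39.5 and 46 CPM at ZT2 and at 95.9, 130.9 and 65.1 CPM at ZT22. ZT22 replicate 3 was below ZT2 replicate 1, so the groups overlapped (-0.95 ± 0.25, adjusted p = 0.27). Tsc22d3, which encodes the glucocorticoid-induced leucine zipper, had -0.56 ± 0.22, the receptor Nr3c1 had 0.17 ± 0.08, and the higher gene was Pdk4, also on the fasting list.

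Of 12 clock output genes, 4 were lower at ZT2 at that threshold and 0 higher, at a median of -0.32. They were Alas1, the first enzyme of heme synthesis (-0.36 ± 0.11), the monooxygenase Fmo2 (-0.80 ± 0.26), the cell cycle kinase Wee1 (-0.60 ± 0.22) and the endoplasmic reticulum gene Herpud1 (-0.34 ± 0.16). The list includes genes that earlier results on these samples had named, so it is no independent evidence of a direction. Among clock protein kinase and ubiquitin enzyme genes, Usp2 (-0.21 ± 0.15), Csnk1e (0.09 ± 0.08) and Csnk2a1 (-0.09 ± 0.08) were not past the threshold.

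Matrix genes outside the gate had few differences past the unadjusted threshold. Of 16 collagen chain genes, 14 were higher at ZT2 and 2 lower (median 0.12), directions that were not tested. Of all 12821 genes, 6531 were higher. Fbn1, which encodes the microfibril protein fibrillin-1, was at 2642, 2341 and 2505 CPM at ZT2 and at 1560.0, 1418 and 1773 CPM at ZT22, without overlap (0.64 ± 0.15, adjusted p = 0.20). Elastin, Eln, had 0.59 ± 0.27, and these 2 were the genes past the unadjusted threshold among 16 other matrix genes, with Thbs1 (1.11 ± 0.83) and Tnc (2.00 ± 1.72) spread widely. Of 16 collagen chain genes 1 was past it, Col5a3 (0.71 ± 0.24), and the differences of Col14a1 (0.14 ± 0.09), Col7a1 (-1.77 ± 0.85) and Col8a1 (1.35 ± 0.90) were not. Of 33 genes of collagen folding, secretion and crosslinking 1 was past it, the lysyl oxidase Loxl2 (0.33 ± 0.14), while P4ha2 (-0.29 ± 0.15), Pde4d (-0.44 ± 0.25) and Sec31a (0.17 ± 0.10) were not.

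Of 17 endoplasmic reticulum chaperone genes, 15 were higher at ZT2 and 2 lower (median 0.11), directions that were not tested. The 1 past the unadjusted threshold was Herpud1, which was lower. Hyou1 (0.50 ± 0.26), Creld2 (0.48 ± 0.27) and Xbp1 (-0.15 ± 0.12) were not. In the TGF-beta pathway list, 1 of 19 was past it, Id2, an inhibitor of basic helix-loop-helix factors, at 109.7, 121.7 and 106.7 CPM at ZT2 and 218.7, 187.3 and 133.2 CPM at ZT22 (-0.70 ± 0.23, adjusted p = 0.39). Id3 (-0.43 ± 0.28), Smad6 (-0.50 ± 0.33) and Ltbp4 (0.36 ± 0.26) were not. Among 24 immediate early genes, which dissociation of tissue is known to induce, 1 was past it, Ier2 (-0.42 ± 0.11, adjusted p = 0.27), and Nr4a3 (-0.56 ± 0.39), Egr2 (0.70 ± 0.54) and Klf6 (0.17 ± 0.13) were not.

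In the cell cycle and replication list, 4 of 19 were past the unadjusted threshold with higher and 1, Wee1, with a lower level at ZT2. Cdk1, the mitotic kinase, was at 3.09, 0 and 4.45 CPM at ZT2 and at 0.676, 0.162 and 0 CPM at ZT22. One library of each time had no UMI, and the groups overlapped (2.89 ± 1.21, adjusted p = 0.55). Ccnb1 (2.67 ± 1.15) and Top2a (2.40 ± 1.07) were likewise low in ZT2 replicate 2 and high in ZT2 replicates 1 and 3. Of 16 antioxidant genes 2 were past it and lower, Gsta4 (-1.78 ± 0.54, from 23 and 61 UMIs) and Gclc (-0.41 ± 0.19), with Gpx1 and Sod2 at -0.13 ± 0.13 each.

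Of 17 inflammatory and chemokine genes 1 was past it, Il18r1 (0.56 ± 0.25). Cxcl2 was at 29.996, 36.8 and 48.6 CPM at ZT2 and at 167.7, 78.6 and 38.8 CPM at ZT22, which is a wide spread among the ZT22 mice (-1.34 ± 0.76), and Ccl7 (-0.58 ± 0.40) and Vcam1 (-0.44 ± 0.31) were also highest in ZT22 replicate 1. Of 14 glycolysis genes 1 was past it, Hk1 (0.18 ± 0.08), and Ldha (-0.22 ± 0.14), Hk2 (-0.41 ± 0.31) and Pgam1 (-0.11 ± 0.11) were not. None of 17 interferon-stimulated genes was, with Ifit2 at 0.24 ± 0.14, Ifit1 at -0.31 ± 0.37, Irf7 at 0.23 ± 0.30 and Ifih1 at 0.15 ± 0.20.

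Genes of the cytosolic ribosome and of oxidative phosphorylation moved little, though most were slightly lower at ZT2. Lower values were found for 66 of 83 ribosomal protein genes and 66 of 78 nuclear-encoded oxidative phosphorylation genes (median -0.07). Of all 12821 genes, 6290 were lower. These counts of direction were not tested. None of 83 ribosomal protein genes was past the unadjusted threshold, and their median was -0.04, with Rpl35 at -0.12 ± 0.11, Rpl39 at -0.10 ± 0.10 and Rps27 at -0.11 ± 0.11. Of 78 nuclear-encoded oxidative phosphorylation genes 2 were past it, both lower, Ndufb2 (-0.19 ± 0.08) and Cox5a (-0.25 ± 0.11), and Ndufs1 (0.19 ± 0.09) and Ndufs3 (-0.17 ± 0.10) were not. None of 13 mitochondrially encoded genes was, with mt-Nd4l at -0.16 ± 0.09, mt-Nd5 at -0.12 ± 0.10, mt-Cytb at 0.10 ± 0.11 and mt-Nd4 at 0.06 ± 0.10.

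**Figure D3:**
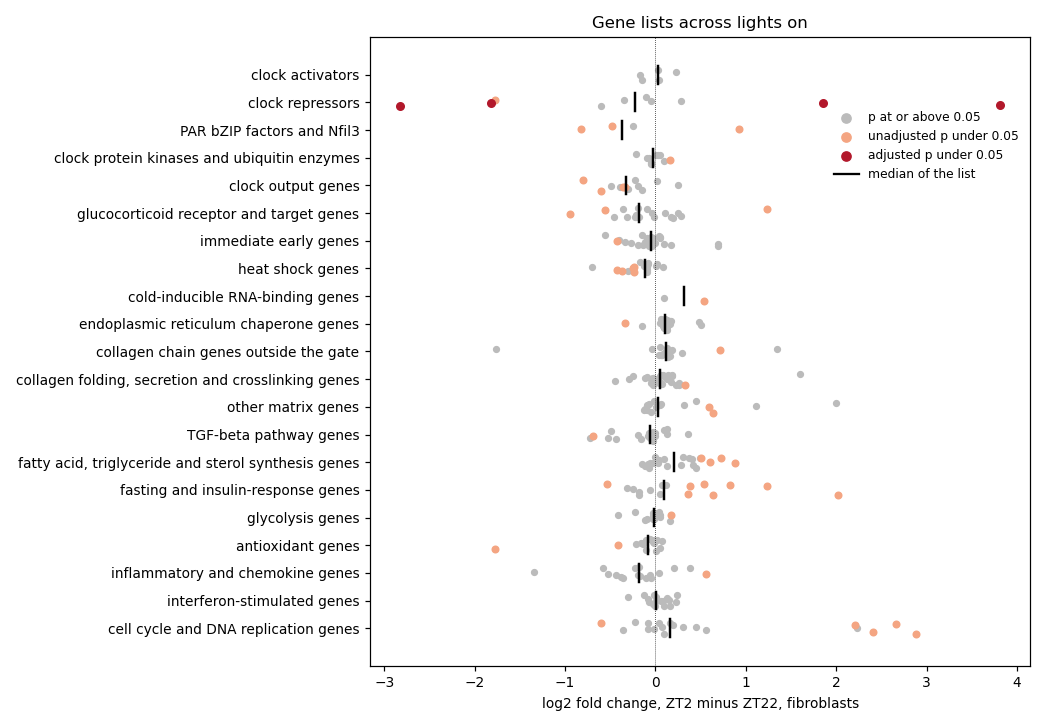
Log2 difference between ZT2 and ZT22 in fibroblasts (horizontal axis) for each tested gene of 21 lists (rows), with the median of the list as a black bar. Red points, past the adjusted threshold, occur only among the clock repressors, and the lists with the most points past the unadjusted threshold are the fasting and insulin-response genes (7 higher, 1 lower) and, with 5 each, the clock repressors, the heat shock genes and the cell cycle genes.

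Over all kept cells, 5 of 14438 genes passed the threshold (0.0346%), 3 higher and 2 lower at ZT2, and all 5 were among the 7 of fibroblasts. Nr1d1 differed by 3.05 ± 0.32 (adjusted p = 0.0012), Nr1d2 by 1.66 ± 0.22 (0.0084), Klf11 by 1.48 ± 0.22 (0.020), Per2 by -2.70 ± 0.36 (0.0084) and Cry1 by -1.81 ± 0.26 (0.019), on the log2 scale with SE and adjusted p. Most of these cells were fibroblasts, so the sums of both comparisons share cells. Without ZT2 replicate 2, Nr1d1 was the 1 gene past the threshold. In sums over mixed cells, a lower level may be fewer cells of a type or less RNA per cell, which such sums alone cannot tell apart. Within fibroblasts the log2 differences of the 2 lower genes were -2.82 for Per2 and -1.82 for Cry1. The immune markers summed to 2592 to 3116 CPM at ZT2 and 1642 to 2099 CPM at ZT22, and the keratinocyte markers to 178.1 to 375.6 and 98.1 to 148.4 CPM. Mural markers gave 4.71 to 5.91 and 0.967 to 3.72 CPM, and Schwann markers 41.0 to 44.0 and 33.3 to 40.0 CPM. These sums did not overlap between the times, and those of the other marker lists did. The part of these cell types in the all-cell values was not tested.

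Below the threshold over all cells came Skint3, a gene of the Skint immunoglobulin family, with 7.13, 9.21 and 4.49 CPM at ZT2 and 1.30, 2.46 and 1.81 CPM at ZT22 (1.86 ± 0.37, adjusted p = 0.19). It had no UMI in the fibroblasts of these libraries, and 393 of its 418 UMIs at ZT2 and 105 of 107 at ZT22 were in the immune gate. There it was at 49.6, 43.7 and 30.3 CPM at ZT2 and at 10.3, 23 and 19.7 CPM at ZT22, so the groups were apart within that gate too (1.19 ± 0.46, adjusted p = 1.0). How many of all genes are apart in that gate was not counted. Hist1h1c, a linker histone, was at 66.8, 64.2 and 81.6 CPM at ZT2 and at 105.2, 101.7 and 100.3 CPM at ZT22 (-0.56 ± 0.11, adjusted p = 0.16), and Rrn3 at -0.49 ± 0.09 (adjusted p = 0.12).

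In immune-gate cells (at least 1 UMI of Ptprc, 0 of Pdgfra and under 20 of the 3 collagens, 92 to 407 cells and 913307 to 5242141 UMIs per library), 0 of 10346 genes passed the threshold with edgeR (0%), 199 had an unadjusted p under 0.05 (1.92%), and DESeq2 called 1 gene, Hk2, named here after its value was seen. Per2 was at 3.51, 1.29 and 2.10 CPM at ZT2 and at 7.28, 10.9 and 9.85 CPM at ZT22, on 22 and 58 UMIs. Its libraries were apart by time, as in fibroblasts (-2.09 ± 0.50, adjusted p = 1.0). Nr1d2 was also apart, at 17.5, 25.6 and 20.03 against 7.28, 11.7 and 12 CPM (1.04 ± 0.32), as were Cry1 (-1.10 ± 0.39) and Klf11 (0.86 ± 0.33). All of these genes were picked because they had passed in fibroblasts. The share of all immune-gate genes that are apart in this way was not counted, and none of these genes passed the test there.

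Nr1d1 was at 20.04, 9.39 and 5.53 CPM in the ZT2 immune-gate cells and at 14.3, 6.09 and 2.19 CPM in those of ZT22. The groups overlapped here and not in fibroblasts, and the difference was 0.26 ± 0.59 on 98 and 63 UMIs. In fibroblasts of ZT22 replicate 1 the same gene was at 0.901 CPM. Bhlhe41 was at 1.50, 3.56 and 5.15 CPM at ZT2 and 8.79, 11.3 and 10.9 CPM at ZT22 (-1.51 ± 0.51), and Ciart, far more abundant here than in fibroblasts, at 14, 24 and 28.8 CPM and 47, 51.3 and 13.1 CPM (-0.83 ± 0.41).

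Whether the difference between ZT2 and ZT22 was itself different between the gates was tested with an interaction term, each library serving as its own block. With edgeR 0 of 13086 genes passed (0%), 460 had an unadjusted p under 0.05 (3.52%), and DESeq2 called 0. Nr1d1 had an interaction of -3.86 ± 0.79 on the log2 scale, immune gate minus fibroblasts, with an adjusted p of 0.48, and Nr1d2 of -0.86 ± 0.29, Klf11 of -0.75 ± 0.33, Cry1 of 0.78 ± 0.44 and Per2 of 0.73 ± 0.49, each with an adjusted p of 1.0. Without ZT22 replicate 3, Nr1d1 was past the threshold (-4.77 ± 0.72, adjusted p = 0.022), and without ZT22 replicate 1 its interaction was -2.40 ± 0.94 (adjusted p = 1.0). With no filter on low counts Nr1d1 was past it as well (-3.88 ± 0.35, adjusted p = 1.6e-23), as 1 of 57 genes, and the cause was not tested. All 5 estimates are nearer to 0 in immune-gate cells than in fibroblasts, a direction favoured by the choice of genes that had passed in fibroblasts. Their adjusted p does not establish a difference between the gates. Clock genes that had not passed went either way. Cry2 was farther from 0 in immune-gate cells (-0.93, against -0.10 in fibroblasts) and Dbp nearer (-0.20, against 0.93). On simulated counts with these depths, 5 of 75 genes changed 2-fold in 1 gate and 23 of 50 changed 3-fold were recovered by the interaction. The simulation gave all genes of a gate the same spread and drew the gates independently, so recovery in the real libraries may differ.

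**Figure D4:**
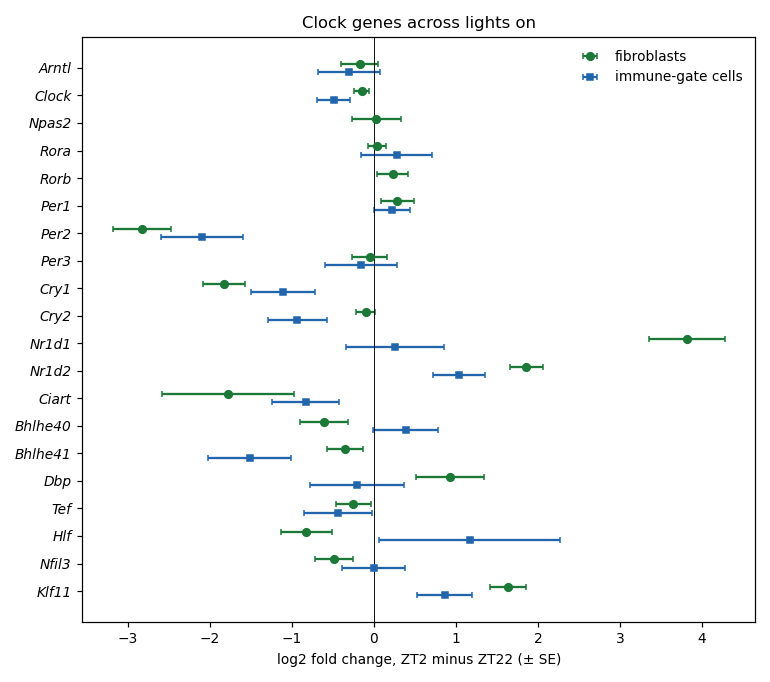
Log2 difference between ZT2 and ZT22 with its SE (horizontal axis) for the tested clock genes and Klf11 (rows), as green circles in fibroblasts and blue squares in immune-gate cells. Nr1d1 is at 3.81 in fibroblasts and 0.26 in immune-gate cells, and Per2, Cry1, Nr1d2 and Klf11 have the same sign in both.

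The cells themselves were counted by gate. Immune-gate cells were 22.3%, 27.3% and 20.4% of the kept cells at ZT2 and 18.6%, 16.4% and 16.7% at ZT22, without overlap. The means were 23.3% ± 3.57 and 17.2% ± 1.21 (SD, n = 3; exact permutation test, two-sided, p = 0.1, the smallest that 3 against 3 libraries allow). Over all deposited barcodes the immune-gate shares overlapped, at 15.7%, 21.6% and 20.9% for ZT2 and 18.7%, 12.3% and 12.3% for ZT22. Fibroblasts were 64.4%, 66.7% and 74.7% at ZT2 and 72.8%, 74.4% and 68.7% at ZT22, which overlap (exact permutation test, two-sided, p = 0.4). Cells in neither gate made up 4.905% to 13.3% at ZT2 and 8.58% to 14.5% at ZT22. These are shares of sorted and digested cells that passed the filter, which kept 58.7% to 87.7% of the barcodes at ZT2 and 57.1% to 83.7% at ZT22.

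**Figure D5:**
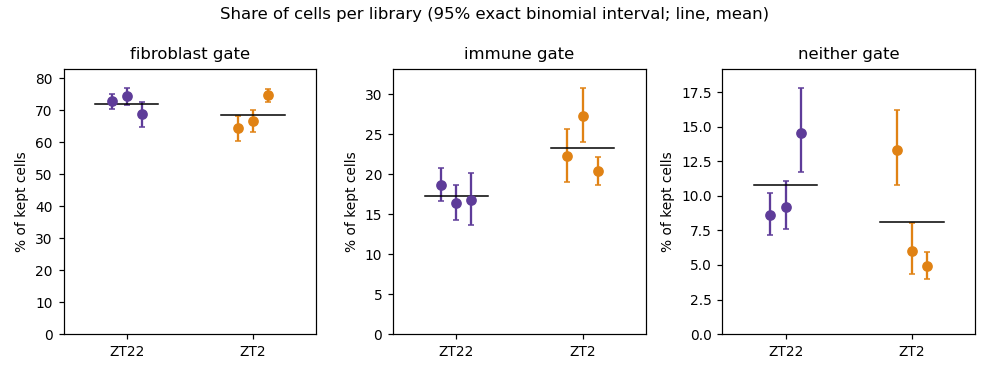
Share of kept cells (%, vertical axis) in the fibroblast gate, the immune gate and neither gate, with 1 point and its 95% exact binomial interval (counting error only) per library and the mean of 3 libraries as a line. The immune share of every ZT2 library (20.4% to 27.3%) is above that of every ZT22 library (16.4% to 18.6%), and the fibroblast shares overlap.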

How the data were processed

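Single-cell RNA of dorsal dermis was measured with 10x 3′ v3 chemistry. According to the submitters' processing notes and the study's methods, reads were aligned to mm10 and counted with Cell Ranger 3.1.0. The deposited values are raw UMI counts per gene and barcode, not normalized, with no filter on mitochondrial share, in 1 matrix per library of 32285 genes. The members of the comparison and the gene lists were chosen with earlier results of these data known.

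UMI counts were summed per library over kept cells, fibroblasts and immune-gate cells (filters as in the report, with the study's limits on genes and mitochondrial share). Doublets were not called. As alternatives, cells above the 90th percentile of UMIs of their library were left out, as were cells with 10 or more UMIs of other lineages. The sums of all 18 libraries in 6 time groups were tested with edgeR 4.0.16 in R 4.3.3 (filterByExpr, TMM, quasi-likelihood, 12 residual degrees of freedom, Benjamini-Hochberg over all genes, threshold 0.05), with DESeq2 1.42.0 as an alternative. TMM factors of the 6 libraries were 0.967 to 1.02 in fibroblasts. The interaction was fitted on fibroblast and immune-gate sums together with the library as a block. CPM values printed are UMIs per 1000000 UMIs of the sum, and log2 differences are fitted values, ZT2 minus ZT22. The edgeR test gives no SE. The SE printed with a log2 difference is its absolute value divided by the square root of the F statistic, an approximation. P-values of the fibroblast, all-cell and immune-gate tests measure the spread between mice of a time, pooled over the 6 time groups. Mice of a time were collected on different days. In the interaction the library is a block, so its p-values measure how the difference between the gates varies between mice. Shares were compared with exact permutation tests, and intervals on them cover counting error only. Tested on simulated counts for the fibroblast comparison (12666 genes), 23 of 75 genes changed 1.5-fold, 65 of 75 changed 2-fold and 48 of 50 changed 3-fold were recovered, with 7 false calls, and for immune-gate cells (10229 genes) 14 of 75 changed 2-fold. All genes of a comparison were given the same spread in these counts, so recovery in the real libraries may differ.

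Named genes were all detected clock activators, clock repressors and PAR bZIP factors with Nfil3, the 8 higher and 8 lower fibroblast genes with the smallest adjusted p, up to 6 each with the largest change past the threshold at 10 CPM or more, up to 4 per other list by adjusted p, and the 4 higher and 4 lower all-cell genes, leaving out the genes of the gates. A few genes that this rule takes are not reported here. Gene positions come from GENCODE M21 and promoters from RefSeq, both GRCm38, the build of the counts. Sums, shares and figures were made in Python 3.11.15 (pandas 2.3.3, numpy 2.4.6, scipy 1.17.1, matplotlib 3.10.9).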

Additional observations from a re-analysis of the deposited data

Results flagged for a closer look

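Cells of neither gate, which had no test of gene levels of their own, held UMIs of both receptors that rose in fibroblasts. Nr1d1 was at 20.3, 51.5 and 33.4 CPM there in the ZT2 libraries (mean 35.0) and at 6.42, 11.6 and 6.07 CPM in the ZT22 libraries, on 85 and 27 UMIs. Nr1d2 was at 42.8, 30.4 and 36.3 CPM (mean 36.5) and at 4.99, 20.4 and 27.9 CPM, on 100 and 53 UMIs. Neither gene overlapped between the times. How many of all genes are apart in this way in these cells was not counted, and both genes were picked because they had passed in fibroblasts. These cells, 42 to 118 per library, are of several kinds and were not tested.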

How the results depend on the processing

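The 7 fibroblast genes were also the 7 called with DESeq2 size factors, with the stricter gate, without cells carrying UMIs of other lineages and without the cells of most UMIs. DESeq2 called 36 genes, edgeR without a filter on low counts 14 and edgeR on only the 6 libraries 14, each including all 7. Thinning to the smallest library gave 4 (Cry1, Klf11, Nr1d1, Nr1d2) and equal cell numbers 3 (Nr1d1, Nr1d2, Per2), with fewer counts by construction. Leaving out 1 library gave 3 (without ZT22 replicate 1) to 7 genes, with 4 without ZT2 replicate 2 or ZT2 replicate 3, and Nr1d1 and Nr1d2 were past the threshold in all 16 alternatives. Over all cells the count was 14 with DESeq2, 1 (Per2) with only the 6 libraries, 3 after thinning, and 1 (without ZT2 replicate 2) to 4 when 1 library was left out (2 without ZT2 replicate 1, 3 without ZT22 replicate 1), against 5. In immune-gate cells it was 1 with DESeq2 and 4 without a filter (Hk2, Tfrc, Ccl7 and Car3, named after their values were seen), and the interaction gave 57 genes without a filter and 0 to 1 when 1 library was left out (Nr1d1, without ZT22 replicate 3). The cause was not tested. The difference in the share of fibroblast-gate cells was -3.36 percentage points over kept cells (-6.41 to -1.26 when 1 library was left out) and turned to 2.38 over all deposited barcodes, and that in the share of immune-gate cells was 4.97 there (exact permutation p = 0.2), against 6.07.

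Same-numbered libraries of the 2 times were not more alike than differently numbered ones. In fibroblasts the deviations of same-numbered libraries correlated at 0.061, 0.013 and -0.059, and those of differently numbered libraries at -0.24 to 0.22. Over all cells the values were -0.33 to -0.27 and 0.068 to 0.28. With 3 libraries per time, these correlations cannot settle whether same-numbered mice share a batch. With the replicate block, 10 fibroblast genes passed (Shb, Ext1 and Ssh2 besides the 7), 3 all-cell genes (Nr1d1, Nr1d2 and Per2, with Klf11 and Cry1 at an adjusted p of 0.0545 each) and 0 immune-gate genes (edgeR, 214 at an unadjusted p under 0.05).

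Of 1911 alternative values for 124 single-gene results, 1822 kept direction and side of the threshold, 41 fell below it and 27 rose above it. Only the 7 genes called in fibroblasts (16 alternatives each) and the 5 over all cells (13 each) could lose a call. All 41 losses are theirs. The other 21 values changed sign, none of them past the threshold. With equal cell numbers the log2 difference became 0.12 for Clock, 1.12 for Ciart, 0.39 for Nr4a3, -0.27 for Col8a1, -2.15 for Tnc, -0.016 for Fdps and -0.0052 for Irf7. After thinning it was -0.070 for Npas2 and -0.012 for Ifih1, and without the cells of most UMIs -1.43 for Top2a. Over the fits that leave out 1 library it ranged from -0.16 to 0.22 for Npas2, -0.040 to 0.075 for Rora, -0.25 to 0.061 for Per3, -0.17 to 2.05 for Thbs1, -0.22 to 0.014 for Gpx1, -0.33 to 0.49 for Irf7, -0.0054 to 0.16 for mt-Cytb and -0.079 to 0.12 for mt-Nd4. On simulated counts, of 75 genes changed 2-fold, 65 were recovered in fibroblasts, 22 over all cells, 14 in immune-gate cells and 5 by the interaction. The simulation gave all genes of a comparison the same spread and changed more genes than the real fits called. Recovery in the real libraries may therefore be lower, and changes of this size could be missed in fibroblasts too.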
